A study of Mus musculus with 6 samples.

Results

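The loci of 8 muscle precursor genes, Pax3, Pax7, Lbx1, Met, Myf5, Myf6, Myod1 and Myog, were examined for chromatin accessibility in distal forelimb buds of wild-type and Hox13-/- mouse embryos. A peak was assigned to a gene when its midpoint lay inside the gene or within 100 kb of its annotated start site. This gave 37 of the 61954 merged ATAC-seq peaks in the deposited table. In ATAC-seq, the Tn5 transposase cuts and tags open chromatin, and regions rich in its insertions are called as peaks. The wild type and the Hox13-/- genotype had 2 libraries each, and Hox13-/- embryos carry inactivated alleles of both Hoxa13 (Hoxa13Str) and Hoxd13 (Hoxd13lacZ). Embryos were taken at E11.5 on a background that mixes C57Bl/6 and 129, and a library was made from both forelimb buds of 1 embryo, combined. A further 2 proximal libraries are listed and were not analysed here. Pooled bud tissue contains several cell types, so a smaller number of cells of 1 type and lower accessibility within those cells cannot be told apart.

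Limb muscle does not arise from the limb mesenchyme itself. Precursor cells leave the somites under the control of Pax3, respond through the receptor Met to a growth factor made by limb cells, require Lbx1 for migration, and settle first in the proximal bud. There they switch on Myf5 and Myod1, and later Myog and Myf6, the basic helix-loop-helix factors that commit cells to myogenesis and drive differentiation by binding the E-box, CANNTG. Since this lineage populates the bud from its base, its loci were read as a check on the mixture of cells in a distal dissection, and the question asked was whether they were more accessible in Hox13-/- distal limbs.

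In Hox13-/- distal limbs, accessibility rose at 6 of the 37 peaks, or 16.2%, and fell at 2, or 5.41% (limma, adjusted p under 0.05 over all peaks). Of all peaks, 11.4% were called higher and 8.31% lower. The 6 rises lay in introns of Pax3, which accounted for 4 of them, 36.4 kb upstream of Myod1, and over an internal exon of Met. The falls lay in the first intron of Met and 35.0 kb upstream of Pax3. No peak of Pax7, Lbx1, Myf5, Myf6 or Myog passed the threshold, and neither did the peaks at the start sites of Met and Myod1. The sequences of the 3 peaks with the smallest p among the rises, and of the fall with the smallest p, are given here as those at which the evidence of a difference was strongest. They are the plus strand of GRCm38 (mm10), 5′ to 3′, at chr1:78157947-78158246, chr1:78129258-78129557, chr7:46339942-46340241 and chr6:17467616-17467909. The first 3 are the central 300 bases of longer peaks and the last is the whole peak. Capitals mark every match to CANNTG, a pattern that is the same on both strands. Pax3 is transcribed from the minus strand, the other genes shown from the plus strand.
Pax3 +39.0 kb: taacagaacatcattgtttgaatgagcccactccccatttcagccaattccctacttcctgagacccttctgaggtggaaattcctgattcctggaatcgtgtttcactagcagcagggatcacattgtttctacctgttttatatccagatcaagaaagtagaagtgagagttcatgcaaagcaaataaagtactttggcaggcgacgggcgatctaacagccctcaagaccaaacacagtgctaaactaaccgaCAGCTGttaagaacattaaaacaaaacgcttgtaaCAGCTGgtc
Pax3 +67.7 kb: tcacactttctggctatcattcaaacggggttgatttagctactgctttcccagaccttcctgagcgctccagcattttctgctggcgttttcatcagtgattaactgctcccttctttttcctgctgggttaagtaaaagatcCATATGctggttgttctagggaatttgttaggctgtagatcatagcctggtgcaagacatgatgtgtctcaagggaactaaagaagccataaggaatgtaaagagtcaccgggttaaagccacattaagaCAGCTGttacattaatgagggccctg
Myod1 -36.4 kb: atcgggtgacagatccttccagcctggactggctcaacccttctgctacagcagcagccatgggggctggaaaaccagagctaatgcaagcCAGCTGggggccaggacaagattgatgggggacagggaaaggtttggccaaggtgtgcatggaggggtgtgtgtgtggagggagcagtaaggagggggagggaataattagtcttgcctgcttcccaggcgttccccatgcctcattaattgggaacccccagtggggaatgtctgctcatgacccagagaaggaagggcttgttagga
Met +4.0 kb: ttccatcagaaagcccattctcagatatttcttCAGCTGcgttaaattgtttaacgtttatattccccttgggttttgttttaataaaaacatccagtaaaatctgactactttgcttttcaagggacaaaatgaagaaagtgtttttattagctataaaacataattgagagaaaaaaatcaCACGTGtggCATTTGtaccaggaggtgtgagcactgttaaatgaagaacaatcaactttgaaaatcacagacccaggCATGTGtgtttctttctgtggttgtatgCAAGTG

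The word CAGCTG, a form of CANNTG bound well by the myogenic factors, occurs 2 times in the stretch 39.0 kb into Pax3 and 1 time in each of the others, which are counts over the printed bases. The other 4 called peaks held none over their whole length. Over fixed windows of 200 bp around the midpoints, CAGCTG was found at 7 of the 37 peaks, or 18.9%, against 17.2% of all peaks. CANNTG, which includes CAGCTG, was found at 25, or 67.6%, against 64.3% of all peaks. The muscle precursor loci thus held these words at about the share of peaks in general. CAATAAA, a word bound by HOX13 proteins, was found on either strand at 1 of the 37 windows, or 2.70%, against 4.69% of all.

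The unit throughout is the rLog of the authors' table, a log2-scale signal per library that was scaled for library size and drawn towards the mean of the peak. No read counts accompany it, so depth per peak is unknown here, and low peaks may differ by more than rLog shows. The members' peaks were weak, with a median rLog of 4.21 against 4.73 over all peaks, and 25 of the 37 lay below the median of all peaks by mean rLog. They were also short, with a median length of 201 bp against 250 bp. Of the 37, 16 lay inside one of the genes. Another gene's start site was the nearest protein-coding one for 10, of which 4 were within 1 kb of that other start. Per gene, there were 9 peaks each for Pax3 and Myog, 5 each for Met and Myod1, 4 for Pax7 and 3 for Lbx1. Myf5 and Myf6, which are neighbours on chromosome 10, shared the same 2 peaks.

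The 6 rises made up 16.2% of the 37 peaks, against 11.4% of all peaks called higher. The 2 falls made up 5.41%, against 8.31% of all peaks called lower. Neither share can be called particular to these genes from such small numbers. No called peak also passed a fold of 2 on the rLog scale, as 0.313% of all peaks did upwards and 0.224% downwards. The largest fold on that scale was 1.71. The study set its fold of 2 on DESeq2 fold changes, which were not used here. Since rLog values are drawn towards the mean of the peak, the cuts are not the same. Whether any of the 37 passed the study's criterion was not looked up. By limma's unadjusted p under 0.05, 7 of the 37 (18.9%) were higher and 6 (16.2%) lower, against 16.9% and 14.9% of all peaks. The median difference, Hox13-/- minus wild type, was 0.04 over the 37, whose values ran from -0.54 to 0.78, and -0.01 over all peaks. With each library instead centred on its median, 6 of the 37 were higher and 5 lower. Over all 61954 peaks, 6017 were then higher and 6811 lower, instead of 7040 and 5146. The higher share of all called peaks thus moved from 57.8% to 46.9%. The 8 peaks called here kept their direction under that scaling.

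**Figure D1:**
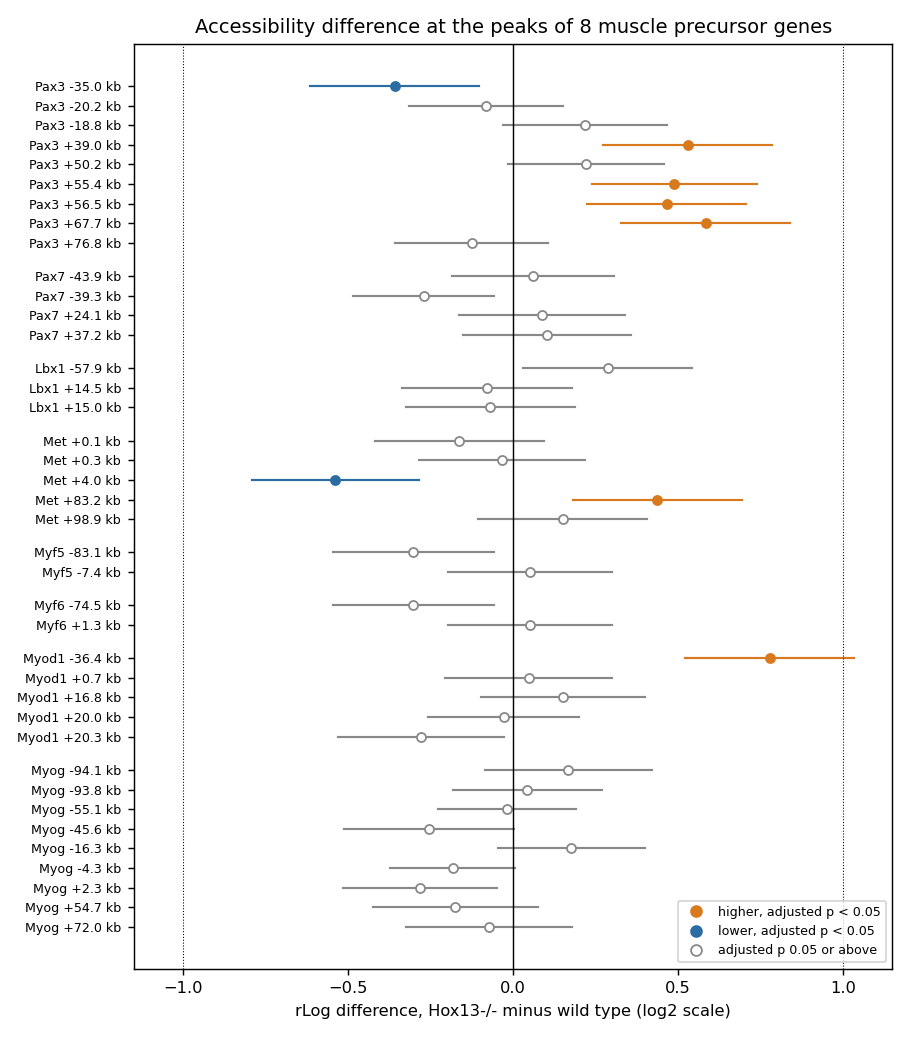
Difference in rLog between Hox13-/- and wild-type distal limbs (x axis, log2 scale) for each peak of the 8 genes, named by its distance from the start site (y axis). Points are differences of the means of 2 libraries, lines are 95% intervals from limma, filled points passed an adjusted p of 0.05 and dotted lines mark a fold of 2. The 2 peaks shared by Myf5 and Myf6 are drawn under both, and no point reaches a dotted line.

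Pax3, the paired-box factor that marks migrating precursors, had the most rises. The gene spans chr1:78101267-78197134 on the minus strand, and 6 of its 9 peaks lay inside it, in its introns. In intron 5 of the 9-exon transcript, 67.7 kb from the start (chr1:78129190-78129626), the wild-type rLog values were 5.08 and 5.41 and the Hox13-/- values 5.99 and 5.67. Both mutant libraries lay above both wild-type libraries. The difference was 0.58 (SE 0.130, adjusted p = 1.5e-04), but it missed the threshold without wild-type library 1 (0.42, adjusted p = 0.053) or Hox13-/- library 1 (0.42, adjusted p = 0.062).

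In intron 4, 39.0 kb from the Pax3 start (chr1:78157916-78158278), the wild-type values were 5.08 and 4.91 and the Hox13-/- values 5.41 and 5.65. The groups did not overlap, and the difference was 0.53 (SE 0.131, adjusted p = 7.6e-04). Without Hox13-/- library 2 it was 0.41 (adjusted p = 0.074). This peak and the one in intron 5 each reached the peak caller's threshold in the 2 mutant libraries alone, and entered the merged peaks through those.

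A close pair of weaker peaks in the same intron 4 also rose. At 55.4 kb (chr1:78141688-78141861) the wild-type values were 3.84 and 3.80 and the Hox13-/- values 4.32 and 4.29, a difference of 0.49 (SE 0.128, adjusted p = 0.0017). At 56.5 kb (chr1:78140541-78140711) they were 3.42 and 3.41 against 3.85 and 3.91, a difference of 0.47 (SE 0.123, adjusted p = 0.0019). The libraries of a genotype lay close together at both, the mutant values were the higher, and both calls held on leaving out any 1 library. The pair was picked out once its values were known.

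The other intronic Pax3 peaks did not pass. At 50.2 kb the wild-type values were 3.34 and 3.38 and the Hox13-/- values 3.53 and 3.63, and the difference of 0.22 had a 95% interval from -0.02 to 0.46 (adjusted p = 0.190). In intron 7, 76.8 kb from the start, the values were 3.42 and 3.35 against 3.21 and 3.31, with an interval from -0.36 to 0.11. The mutant libraries were above the wild type at the first and below it at the second, so the intronic peaks did not all differ in one direction.

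Upstream of Pax3 the one call was a fall. At 35.0 kb upstream (chr1:78232008-78232217) the wild-type values were 5.16 and 5.33 and the Hox13-/- values 5.02 and 4.75, a difference of -0.36 (SE 0.131, adjusted p = 0.035). Both mutant libraries were lower, but the call was lost without wild-type library 2 (-0.27, adjusted p = 0.269) or Hox13-/- library 2 (-0.22, adjusted p = 0.397). The peaks 20.2 and 18.8 kb upstream differed by -0.08 and 0.22, with adjusted p of 0.663 and 0.225. No peak lay within 1 kb of the Pax3 start, and the nearest was that at 18.8 kb.

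**Figure D2:**
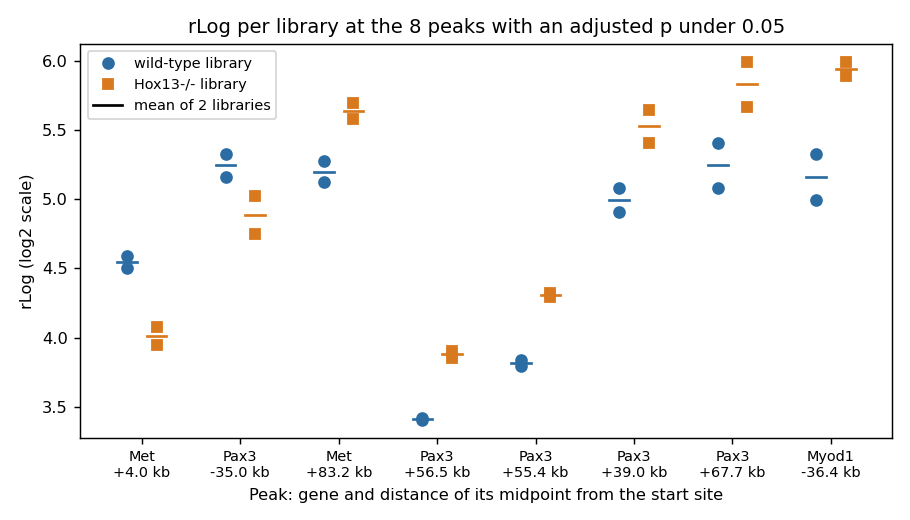
The rLog of each library (y axis, log2 scale) at the 8 peaks that passed an adjusted p of 0.05 (x axis, gene and distance from its start site). Circles are wild-type libraries, squares Hox13-/- libraries and short lines the mean of 2 libraries. The genotypes do not overlap at any of the 8, which the choice of peaks by these same values makes likely. The gap is widest 36.4 kb upstream of Myod1.

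Pax7, the paralogue of Pax3 that marks later muscle progenitors and satellite cells, showed no such pattern (chr4:139737062-139833528, minus strand). Its peak with the smallest p, 39.3 kb upstream, had wild-type values of 2.95 and 3.00 and Hox13-/- values of 2.74 and 2.67. The mutant libraries were the lower, with a difference of -0.27 (SE 0.109, adjusted p = 0.062). In intron 4, the intron number that held 3 of the Pax3 rises, Pax7 had peaks 24.1 and 37.2 kb from the start, which differed by 0.09 (95% interval -0.17 to 0.34) and 0.10 (-0.15 to 0.36). The peak 43.9 kb upstream, the highest of Pax7 per kb of length, had values of 3.77 and 3.76 against 3.95 and 3.71, and the genotypes overlapped.

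Lbx1 encodes a homeodomain factor needed by precursors that migrate into the limb (chr19:45232684-45235812, minus strand). Its 3 peaks lay outside the gene. At 57.9 kb upstream the wild-type values were 4.27 and 4.36 and both Hox13-/- values 4.60. The mutant libraries were the higher, but the difference of 0.29 (SE 0.130) did not pass (adjusted p = 0.105). Downstream, the peaks at 14.5 and 15.0 kb differed by -0.08 (95% interval -0.34 to 0.18) and -0.07 (-0.33 to 0.19), and their genotypes overlapped.

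Met encodes the receptor tyrosine kinase through which precursors detach from the somite and migrate, and it is also expressed outside the muscle lineage (chr6:17463800-17573980, plus strand). All 5 of its peaks lay inside the gene. The peaks nearest its start, 0.1 and 0.3 kb into the first exon, differed by -0.16 (95% interval -0.42 to 0.09) and -0.03 (-0.29 to 0.22). At the first of these the wild-type values were 4.59 and 4.49 and the Hox13-/- values 4.51 and 4.25, so the genotypes overlapped.

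The 2 calls at Met ran in opposite directions. In intron 1, 4.0 kb from the start (chr6:17467616-17467909), the wild-type values were 4.59 and 4.50 and the Hox13-/- values 3.94 and 4.07. Both mutant libraries were below both wild-type libraries, and the difference was -0.54 (SE 0.129, adjusted p = 4.9e-04). It held on leaving out any 1 library.

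At exon 13 of 22, 83.2 kb into Met (chr6:17546855-17547230), the wild-type values were 5.27 and 5.13 and the Hox13-/- values 5.58 and 5.70. The difference was 0.44 (SE 0.131, adjusted p = 0.0074), with the mutant libraries higher. It missed the threshold without wild-type library 2 (0.36, adjusted p = 0.110) or Hox13-/- library 2 (0.38, adjusted p = 0.108). The last peak, in intron 19 and 98.9 kb from the Met start, had values of 5.45 and 5.36 against 5.28 and 5.82, and its genotypes overlapped. The start site nearest to it is that of Capza2.

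**Figure D3:**
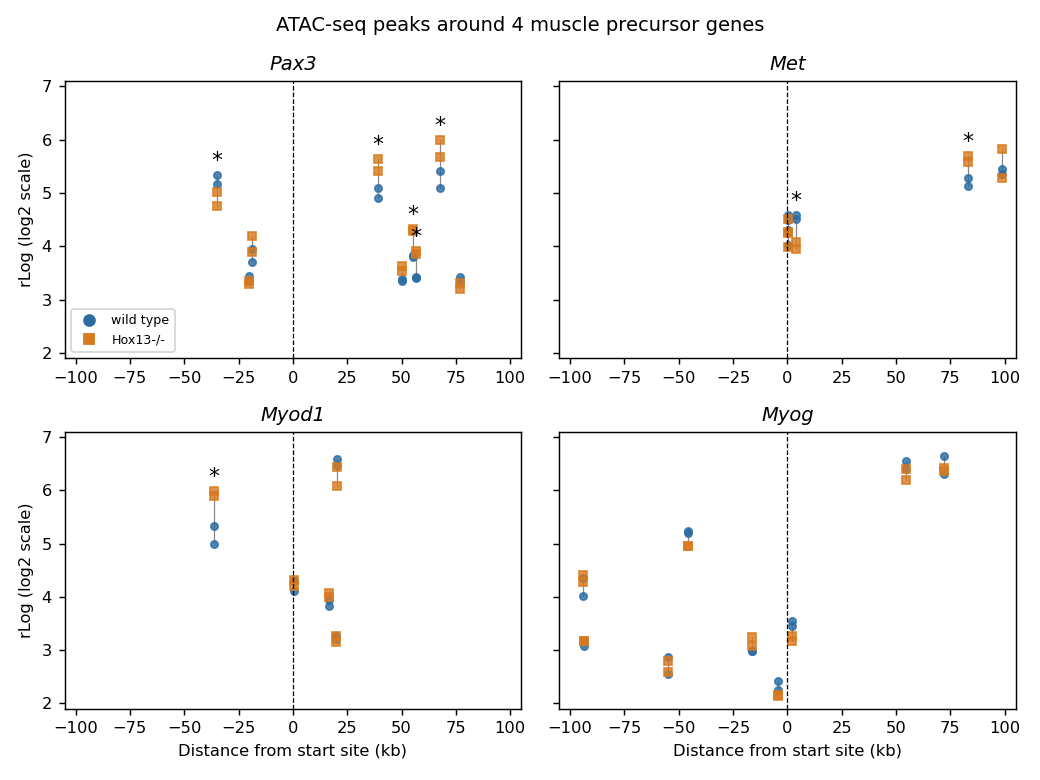
The rLog of each library (y axis, log2 scale) against distance from the start site in the direction of transcription (x axis, kb) for the peaks of Pax3, Met, Myod1 and Myog. Circles are wild type, squares Hox13-/-, grey lines join the 4 libraries of a peak and stars mark an adjusted p under 0.05. The rises at Pax3 lie between 39.0 and 67.7 kb, and the Myog peaks, all without a star, are highest where another gene's start site is nearest.

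Myod1, a factor that commits cells to the muscle lineage, had the rise with the smallest p (chr7:46376474-46379099, plus strand). At 36.4 kb upstream (chr7:46339870-46340314, intergenic) the wild-type values were 5.00 and 5.33 and the Hox13-/- values 5.99 and 5.89. The groups lay apart, and the difference was 0.78 (SE 0.130, adjusted p = 1.3e-07). It held under each of the 11 alternatives that kept this peak, between 0.61 and 0.94. Myod1 itself has the nearest start site.

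At the gene itself there was no such difference. The peak in exon 1 of Myod1, 0.7 kb from the start, had wild-type values of 4.12 and 4.30 and Hox13-/- values of 4.31 and 4.20. The genotypes overlapped, with a difference of 0.05 and a 95% interval from -0.21 to 0.30 (adjusted p = 0.832). The well-known enhancers of Myod1 about 20 and 5 kb upstream had no peak within 3 kb in any of the 4 libraries, the nearest being 16.4 and 5.7 kb away.

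Downstream of Myod1, the remaining peaks lay closest to Kcnc1, a potassium channel gene. The strongest, 20.3 kb from the Myod1 start and over the Kcnc1 start, had wild-type values of 6.48 and 6.59 and Hox13-/- values of 6.07 and 6.44. The mutant libraries were lower, but the difference of -0.28 did not pass (SE 0.128, adjusted p = 0.109). The peak 16.8 kb from the Myod1 start differed by 0.15 and the remaining weak one by -0.03, with adjusted p of 0.419 and 0.887.

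Myf5, often the first myogenic factor to appear, and Myf6, which acts later in differentiation, had few peaks. The peak in Myf6, 1.3 kb from the Myf6 start and 7.4 kb upstream of Myf5, had wild-type values of 3.93 and 4.03 and Hox13-/- values of 3.87 and 4.19. The genotypes overlapped, and the difference was 0.05 (95% interval -0.20 to 0.30). The other, 83.1 kb upstream of Myf5 in an intron of Ptprq, had values of 4.08 and 3.82 against 3.69 and 3.61, and the difference of -0.30 (SE 0.125) had an adjusted p of 0.069. Neither gene had a peak within 1 kb of its start. The known limb enhancer about 57 kb upstream of Myf5 had none within 3 kb, the nearest being 26.1 kb away.

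Myog, the factor of terminal differentiation, had 9 peaks and no call (chr1:134289989-134292548, plus strand). In its last exon, 2.3 kb from the start, the wild-type values were 3.46 and 3.56 and the Hox13-/- values 3.18 and 3.27. The mutant libraries were lower, with a difference of -0.28 (SE 0.119, adjusted p = 0.077). The peak 4.3 kb upstream, among the weakest of the whole table with values of 2.42 and 2.25 against 2.15 and 2.15, differed by -0.18 (95% interval -0.37 to 0.01). Its strongest peaks, 54.7 and 72.0 kb downstream near Ppfia4 and Tmem183a, differed by -0.17 and -0.07 with overlapping genotypes. The remaining Myog peaks, between 94.1 and 16.3 kb upstream, differed by -0.25 to 0.18.

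Gene by gene, the mean rLog over the peaks of each gene was taken in each library and set against the mean of the wild-type libraries. For Pax3 the wild-type libraries lay at 0.01 and -0.01 and the Hox13-/- libraries at 0.20 and 0.23. For Myod1 the wild-type libraries lay at -0.07 and 0.07 and the Hox13-/- libraries at 0.12 and 0.15. In these 2 genes both mutant libraries were above both wild-type libraries. The mean of Myod1 rested on 1 of its 5 peaks, that 36.4 kb upstream: over the other 4 the wild-type libraries lay at -0.04 and 0.04 and the Hox13-/- libraries at -0.06 and 0.0014, so the genotypes overlapped. Without its own peak of largest difference, 67.7 kb from the start, Pax3 kept the order, with 0.03 and -0.03 against 0.14 and 0.20.

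For the other myogenic factors the order was the reverse. For the shared peaks of Myf5 and Myf6 the wild-type libraries lay at 0.04 and -0.04 and the mutant ones at -0.19 and -0.07. For Myog the wild-type libraries lay at -0.03 and 0.03 and the mutant ones at -0.07 and -0.06. In these 3 genes both mutant libraries were the lower, but Myf5 and Myf6 give 1 reading, since their peaks are the same. Without the peak of largest difference of each, the order held for Myog, whereas Myf5 and Myf6, left with 1 peak, overlapped.

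The genotypes overlapped in the other 3, each of which holds differences of both signs. For Pax7 the wild-type libraries lay at 0.01 and -0.01 and the mutant ones at 0.03 and -0.04. For Lbx1 they lay at 0.01 and -0.01 against -0.04 and 0.13, and for Met at 0.07 and -0.07 against -0.06 and -0.0043. Without the peak of largest difference, which was negative in both, the mutant libraries lay above the wild type for Pax7 and Met. Pax7 then had 0.02 and -0.02 against 0.12 and 0.05. Met had 0.078 and -0.078 against 0.081 and 0.113, so 1 mutant library was barely above. These means were given no test, since 2 libraries against 2 cannot give a permutation p below 0.333. How often the means of other genes separate by genotype was not computed. Of all single peaks, 29.7% had both mutant libraries above both wild-type ones, and 29.6% had the reverse.

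**Figure D4:**
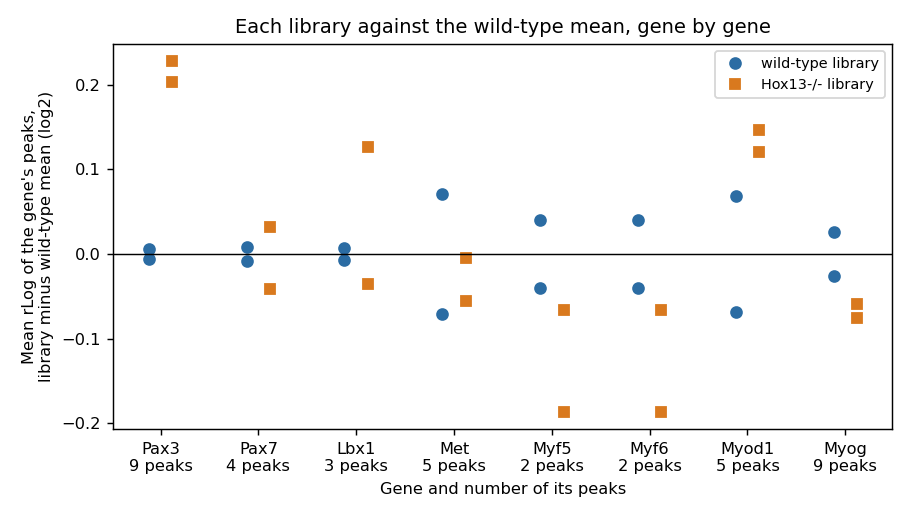
Mean rLog over the peaks of each gene in each library, minus the mean of the 2 wild-type libraries (y axis, log2 scale), for the 8 genes with their number of peaks (x axis). Circles are wild-type and squares Hox13-/- libraries. The squares lie above both circles for Pax3 and Myod1, below both for Myf5, Myf6 and Myog, and overlap them for Pax7, Lbx1 and Met. Myf5 and Myf6 show the same peaks.

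Peak by peak, both Hox13-/- libraries lay above both wild-type libraries at 11 of the 37, against 29.7% of all peaks. The reverse held at 10 of the 37, against 29.6% of all peaks. All 8 called peaks were among these, which calling on the same values makes likely, and 16 of the 29 not called overlapped. The differences of the 29 ran from -0.30 to 0.29, and their 95% intervals reached no further than -0.55 and 0.54.

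The per-library peak calls in the table describe the same peaks in another way. Of the 37 peaks, 8 had been called by the authors in the 2 mutant libraries alone, against 11.2% of all peaks, and 5 of these 8 are among the 6 rises. A call in the 2 wild-type libraries alone held for 1, the fall in intron 1 of Met, against 2.98% of all peaks. Only 5 of the 37, or 13.5%, had been called in all 4 libraries, against 31.8% of all peaks, and 14, or 37.8%, had been called in 1 library. The calls rest on the same reads as the rLog values. A peak called in the libraries of 1 genotype alone entered the merged peaks only through that genotype. Its higher signal there was thus partly fixed in advance, and the calls add no support to the rises or falls.

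Wider muscle genes were read in the same way. A list of 28 genes of the muscle regulatory network and contractile apparatus, such as Cxcr4, Actc1 and Ttn, took 269 peaks, of which 30 (11.2%) were higher and 22 (8.18%) lower, with a median difference of -0.01. These shares are close to those of all peaks. A peak lay within 1 kb of the start of 13 of the 28, and 1 of these start-site peaks passed, that of Gab1, an adaptor of Met signalling. Its wild-type values were 8.29 and 8.27 and its Hox13-/- values 7.99 and 7.81, a fall of 0.38 on the log2 scale (SE 0.123, adjusted p = 0.016). By comparison, 2 of the 8 muscle precursor genes had a start-site peak, against 59.8% of autosomal protein-coding genes, and neither passed.

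Markers of other cells were read beside these values. At the targeted genes, the Hoxd13 start-site peak had wild-type values of 4.06 and 4.17 and Hox13-/- values of 3.70 and 3.50 (adjusted p = 6.1e-04). The Hoxa13 start-site peak had values of 5.71 and 5.95 against 5.66 and 5.84. Accessibility at a start does not measure whether an allele is null, so neither checks the genotype. For proximal limb mesenchyme, 8 genes such as Meis1, Irx3 and Shox2, 32 of 166 peaks (19.3%) were higher and 16 (9.64%) lower, against 11.4% and 8.31% of all peaks, with a median difference of 0.10. Both mutant libraries lay above both wild-type libraries at 46.4% of these peaks, against 29.7% of all. For distal mesenchyme, 28 of 181 (15.5%) were higher and 20 (11.05%) lower, with a median of 0.04. Both mutant libraries were the higher at 38.1% of the distal peaks, also above the share of all peaks. Both wild-type libraries were the higher at 27.6% of the distal and 21.7% of the proximal peaks, against 29.6% of all. These lists share peaks around the Hoxa genes.

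Among start-site peaks, none of the 7 present for the proximal list passed. The distal list held Hoxa13, Hoxd13, Msx1, Msx2, Lhx2, Lhx9, Prrx1 and Twist1. Whether each of these is limited to distal cells was not tested. Of the 7 start-site peaks present for the distal list, those of Hoxd13 and Twist1 fell. The lists for endothelium and blood (39 peaks), limb ectoderm (33) and Schwann and neural crest cells (59) had 2, 2 and 1 higher peaks and 2, 2 and 6 lower ones, with medians of -0.03, -0.03 and -0.10. As shares, 5.13%, 6.06% and 1.69% were higher and 5.13%, 6.06% and 10.2% lower, against 11.4% and 8.31% of all peaks. Both wild-type libraries lay above both mutant libraries at 49.2% of the Schwann and neural crest peaks, against 29.6% of all. A start-site peak was present for 2 of 7, 2 of 6 and 2 of 4 of their autosomal genes, and none passed. The genes without one were Pecam1, Cdh5, Tal1, Ptprc and Spi1 for endothelium and blood, and Krt14, Krt5, Fgf8 and Trp63 for ectoderm. For Schwann and neural crest cells they were Sox10 and Foxd3. In the proximal list, Meis2 had none. The part of any of these cell types in the rises at Pax3 and Myod1 was not tested.

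**Figure D5:**
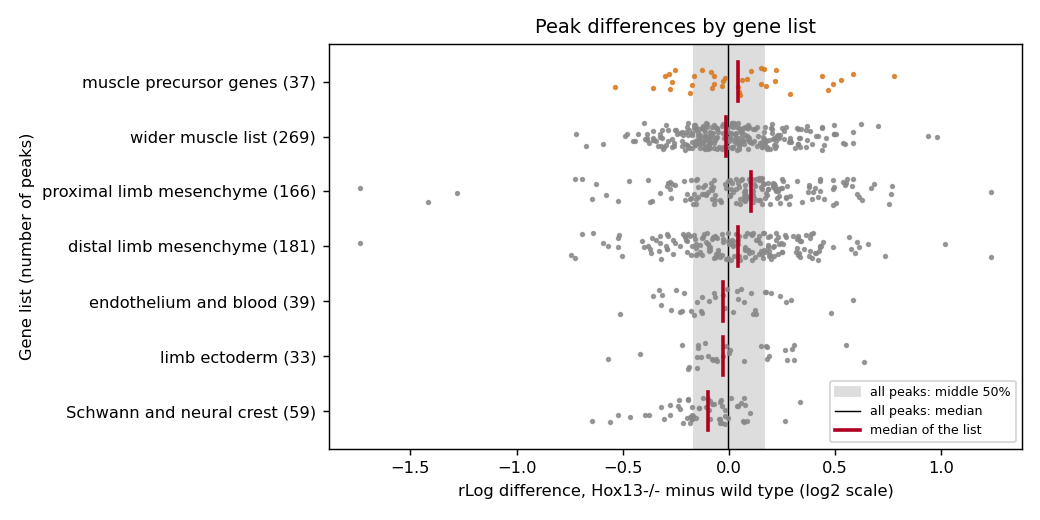
Difference in rLog, Hox13-/- minus wild type (x axis, log2 scale), of every peak assigned to the muscle precursor genes and to 6 other gene lists (y axis, number of peaks in brackets). Each dot is a peak, red bars are list medians, and the grey band and black line are the middle 50% and the median of all peaks. The muscle precursor median of 0.04 lies near the black line, and that of the proximal list, 0.10, lies above it.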

How the data were processed

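Chromatin accessibility was measured by ATAC-seq in 4 distal forelimb bud libraries. Per the labels and methods, the authors' tools were Bowtie2 2.3.1 for alignment to mm10 and, for each library, peak calling with MACS2 2.1.1.20160309. The authors merged the peaks with HOMER 4.9.1, ran DESeq2 through it and also used SAMtools 1.4.1. Handling of duplicates, blacklisted regions and the Tn5 offset is not given in the sources used here. The authors deposited rLog values, on a log2 scale, with the libraries in which each of 61954 autosomal peaks was called. The deposited log2 fold change, p-value and adjusted p-value of the authors' own comparison were not used. The X chromosome was not analysed here.

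Here, rLog values of all peaks were compared between genotypes with limma 3.58.1 in R 4.3.3 (variance trend, two-sided, Benjamini-Hochberg over all peaks), after the code was tested on simulated data. A call needs an adjusted p under 0.05. An exact permutation test of 2 libraries against 2 cannot go below p = 0.333, and limma borrows its estimate of spread from peaks of like signal. Gene positions came from GENCODE M21 and sequence from GRCm38, counted from 1, read in Python 3.11.15. The start-site peak is the nearest within 1 kb. Per kb values subtract log2 of the length. Named peaks were the start-site peak, the peak with the highest rLog per kb and that with the smallest p of each gene, the 3 with the smallest p in each direction, and any near known enhancers. The others were picked out once their values were known. The gene members, marker lists and rules were chosen with earlier results of these data known. Both genotypes have replicates 1 and 2, but these are different embryos of different genotypes, and deviations of same-numbered libraries correlated at -0.01 over peaks, so the numbers were not used as pairs. Alternatives were median centring, quantile normalization, cyclic loess, no variance trend, filters on mean rLog, other windows and thresholds, the replicate block and leaving out each library. Figures were drawn with matplotlib 3.10.9.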

Additional observations from a re-analysis of the deposited data

How the results depend on the processing

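Leaving out each library in turn left 1 genotype with a single library, so no count of calls is given for it. The difference 35.0 kb upstream of Pax3, -0.36 with all libraries, was -0.27 without wild-type library 2 and -0.22 without Hox13-/- library 2. With the replicate block the rises were 6 and the falls 2, and the block changed no call at a named peak. The replicate numbers do not pair the libraries. The falls were 5 with median centring, a setting under which the lower calls over all 61954 peaks also went from 5146 to 6811. They were 1 each in the upper 50% of peaks by mean rLog (12 of the 37 tested), with a window of 10 kb (17 peaks) and at an adjusted p under 0.01. The rises under these settings were 4, 5 and 6. In the upper 50%, 3268 of all 30977 peaks tested were lower and 5000 higher. At a fold above 1.5, 1 peak was higher, that 36.4 kb upstream of Myod1. The members' median difference of 0.04 became 0.0083 with median centring, -0.071 in the upper 50% and 0.087 with the window of 10 kb. It ran from -0.0012 to 0.053 on leaving out each library. The median over all peaks moved as well, from -0.0052 to -0.040 with median centring and to -0.037 in the upper 50%. The cause of the moves in the members' median was not tested. Leaving out the peak of largest difference of each gene, an alternative chosen after seeing the data, moved the mean difference of Myod1 from 0.13 to -0.03.

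Of the named peaks, those 36.4 kb upstream of Myod1, 4.0 kb into Met and 55.4 and 56.5 kb into Pax3 kept their call in every alternative that tested them. With median centring the peaks 2.3 kb into Myog, 83.1 kb upstream of Myf5 and 39.3 kb upstream of Pax7 also passed as lower, with differences of -0.32, -0.34 and -0.31. The second passed too in the upper 75% by mean rLog and without wild-type library 2, and the peak 20.3 kb from Myod1 passed without Hox13-/- library 2 (-0.46). On leaving out each library, the sign changed at 4 peaks that were not called, whose differences ran from -0.24 to 0.098 at Myog (72.0 kb), from -0.23 to 0.094 at Lbx1 (15.0 kb), from -0.057 to 0.18 at Pax7 (43.9 kb) and from -0.046 to 0.14 at Myod1 (0.7 kb).

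A 95% interval spanned 0.19 to 0.26 on either side of a member's difference. It rests on a spread pooled over peaks of like signal and hardly reflects the peak's own 2 libraries per genotype. After adjustment the smallest difference called was 0.36 in size and the largest not called 0.30. Without read counts the depth behind each value is unknown.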
